A study of Caenorhabditis elegans with 47 samples.

Results

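The glutathione S-transferases of Caenorhabditis elegans were followed as a family across the series, in worms that expressed Abeta, GFP::degron or GFP. Members were all genes whose symbol in the platform annotation is gst, gsto or gstk followed by a number. There were 45 members, with 40 gst, 3 gsto and 2 gstk genes, out of 17118 genes with a probe set naming 1 gene. All 45 passed into the tests, because no filter on low signal was used.

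The series measured total RNA on 47 Affymetrix arrays, 1 array per sample. Per the labels, the 3 genotypes were worms expressing Abeta, the peptide that accumulates in Alzheimer's disease, worms expressing GFP::degron, a fluorescent protein joined to a sequence that marks proteins for destruction, and worms expressing GFP. All worms were raised on OP50 bacteria at 16 °C until the early L3 larval stage and then moved to 25 °C, so no group was kept without the upshift. RNA was taken at the upshift and after 4, 8, 12, 16 and 20 hours, called T0, T4, T8, T12, T16 and T20. Abeta had 4 arrays each at T8, T12 and T16, GFP::degron had 4, 5 and 4, and GFP had 4, 5 and 4, of which GFP T8 repeat 3 was left out. T0, T4 and T20 had 1 array per genotype. The labels call the samples biological repeats and give neither a promoter, a strain name, a number of animals nor the tissue that makes the protein. No probe set for a transgene was used, so the genotype labels were not checked against the expressed protein.

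Glutathione S-transferases join glutathione, a small sulphur-containing peptide, to reactive electrophilic compounds. The conjugates are less reactive and can be pumped out of the cell, which makes the family a main arm of phase II detoxification. In C. elegans several members, gst-4 above all, are targets of the transcription factor SKN-1 and are used as reporters of oxidative stress. The gsto genes encode omega class enzymes and the gstk genes kappa class enzymes.

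The median intensity of the 46 arrays used lay between 60.2 and 109.2, against 20.4 on GFP T8 repeat 3. Levels are given as log2(intensity + 1) after each array was centred on the median of all genes, and are called log2 levels. Differences between times also carry a shift of all genes, with a median of -0.16 for T16 minus T8 and -0.39 for T20 minus T0, so time differences are given relative to that median. Standard errors (SE) and adjusted p-values (limma, Benjamini-Hochberg over all 17118 genes) belong to the unshifted differences. A stage score places each array along the T16 minus T8 change of 500 other genes in GFP worms. These were the genes that separated the GFP arrays of T16 and T8 most. At T16 the score averaged 0.54 in Abeta, 0.08 in GFP::degron and 0.85 in GFP. The high score of GFP at T16 is thus partly built in. The GFP::degron arrays at T16 ran from -0.27 to 0.66, so by this score the genotypes were not at the same point at that time. At T12 the GFP arrays ran from -0.39 to 0.30, against -0.37 to -0.29 in GFP::degron and -0.32 to -0.27 in Abeta. The score rests on transcripts alone, and the stage of the animals was not measured. In whole worms, fewer cells of a type and less RNA per cell cannot be told apart.

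Arrays with repeat number 1 at T8 and T16 stood apart for some members. Over all genes, the deviations of these 6 arrays from their groups correlated with each other at a median r of 0.24, from 0.09 to 0.49 over 15 pairs. With the number 1 arrays of T12 the median r was -0.09, from -0.59 to 0.32 over 18 pairs. The T0, T4 and T20 arrays all carry number 1 as well, and with 1 array per group their deviation cannot be seen. Among the members, gst-5 and gsto-1 were higher on number 1 than on every other array of the group in all 6 groups, by 1.51 and 0.74 log2 on average. Results that rest on these arrays are given with and without them. The labels do not say what the number stands for.

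**Figure D1:**
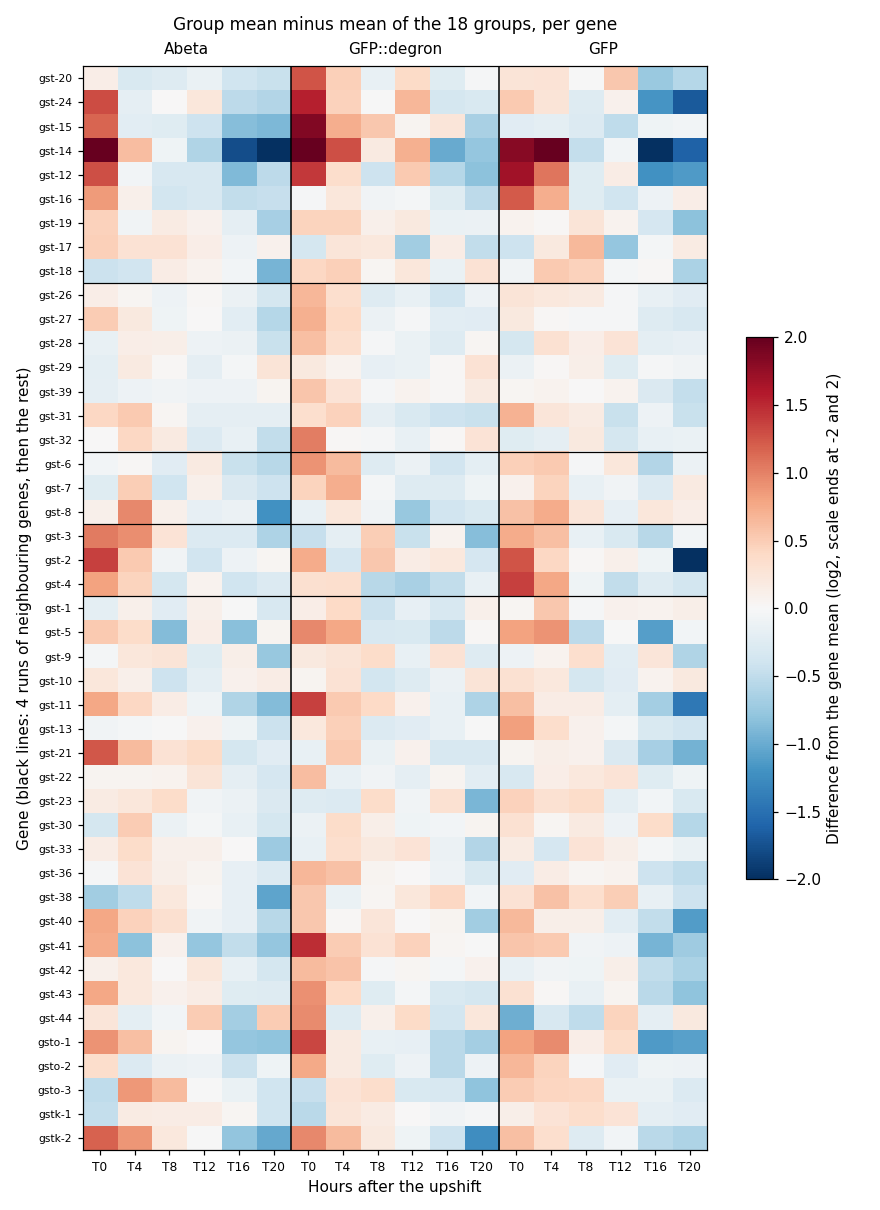
Mean log2 level of each of the 45 genes in the 18 groups of genotype and time, minus the gene's mean over the groups (colour, log2), with Abeta at the left, GFP::degron in the middle and GFP at the right. The T0 columns are mostly red and the T20 columns mostly blue, and gst-14 has a wide swing.

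The comparison of Abeta with GFP worms asks whether expression of Abeta changed the family. None of the 45 members passed the test in Abeta minus GFP averaged over T8, T12 and T16 (limma, adjusted p under 0.05). Over all genes 4.3% passed, with 2.16% higher and 2.14% lower. At an unadjusted p under 0.05 there were 4 members. The differences ran from -0.25 to 0.40 log2, and the 95% confidence intervals of all 45 members lay within 1 log2 of 0, that is within a doubling or halving. Of the marker lists, 6 of 22 sperm genes and 10 of 11 oocyte and eggshell genes were lower in Abeta worms. So was 1 of 7 body-wall muscle genes, while 0 of 9 intestine, 0 of 8 neuron and 0 of 10 molting (cuticle replacement) genes passed. The mean log2 level of the sperm genes ran from 11.01 to 12.57 on Abeta arrays at T16, against 12.58 to 12.94 on GFP arrays. With array weights, which give arrays that scatter more a smaller part, 7 members passed, 4 higher and 3 lower. The shares of all genes in this report belong to the fit without weights or other changes. Counts under array weights or other settings have no such share beside them.

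gst-4 had a lowest, median and highest log2 level of 8.31, 8.91 and 9.75 on 12 Abeta arrays, against 8.31, 8.81 and 9.39 on 12 GFP arrays. The genotypes overlapped, apart from 1 of the 3 times. Abeta minus GFP was 0.05 ± 0.14 log2 (SE), with a 95% interval from -0.24 to 0.34 and an adjusted p of 0.883 (limma). The estimates of single times differed, with -0.27 ± 0.26 at T8, 0.56 ± 0.23 at T12 and -0.13 ± 0.24 at T16, given as estimates without a test.

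gst-1, a pi class enzyme, differed by -0.08 ± 0.09 log2 between Abeta and GFP worms (adjusted p = 0.656, limma). gst-10 and gst-5, both enzymes that conjugate 4-hydroxynonenal, a product of lipid peroxidation, differed by 0.00 ± 0.14 and 0.02 ± 0.28. The omega class gene gsto-1 differed by -0.02 ± 0.19 and the kappa class gene gstk-1 by -0.04 ± 0.09. gst-7, gst-30 and gst-38 differed by -0.03 ± 0.11, -0.25 ± 0.19 and -0.21 ± 0.17. These are estimates of members that did not pass, and their intervals leave room for small changes in either direction. With array weights gst-30 and gst-38 passed, at -0.47 and -0.38 with adjusted p-values of 0.0228 and 0.0306.

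The members nearest to a call were gst-21 and gst-24, both with higher estimates in Abeta worms. gst-24, another enzyme that conjugates 4-hydroxynonenal, had a lowest, median and highest log2 level of 6.90, 8.17 and 8.62 on Abeta arrays, against 6.78, 7.83 and 8.85 on GFP arrays. It lay above the GFP mean of its time on 9 of 12 Abeta arrays. The difference was 0.36 ± 0.14 log2 (adjusted p = 0.139, limma). Without Abeta T16 repeat 3 it was 0.44 with an adjusted p of 0.0418, and with array weights gst-24 was at 0.60 with an adjusted p of 0.000114. gst-21, named after its values were seen, differed by 0.40 ± 0.13 (adjusted p = 0.0711). gst-21 passed without GFP T12 repeat 2, without GFP T12 repeat 3, without GFP T16 repeat 4 or without Abeta T12 repeat 1, with adjusted p-values of 0.0383, 0.0424, 0.0471 and 0.0262. With GFP T8 repeat 3 kept in, gst-21 was at 0.49 with an adjusted p of 0.0381.

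**Figure D2:**
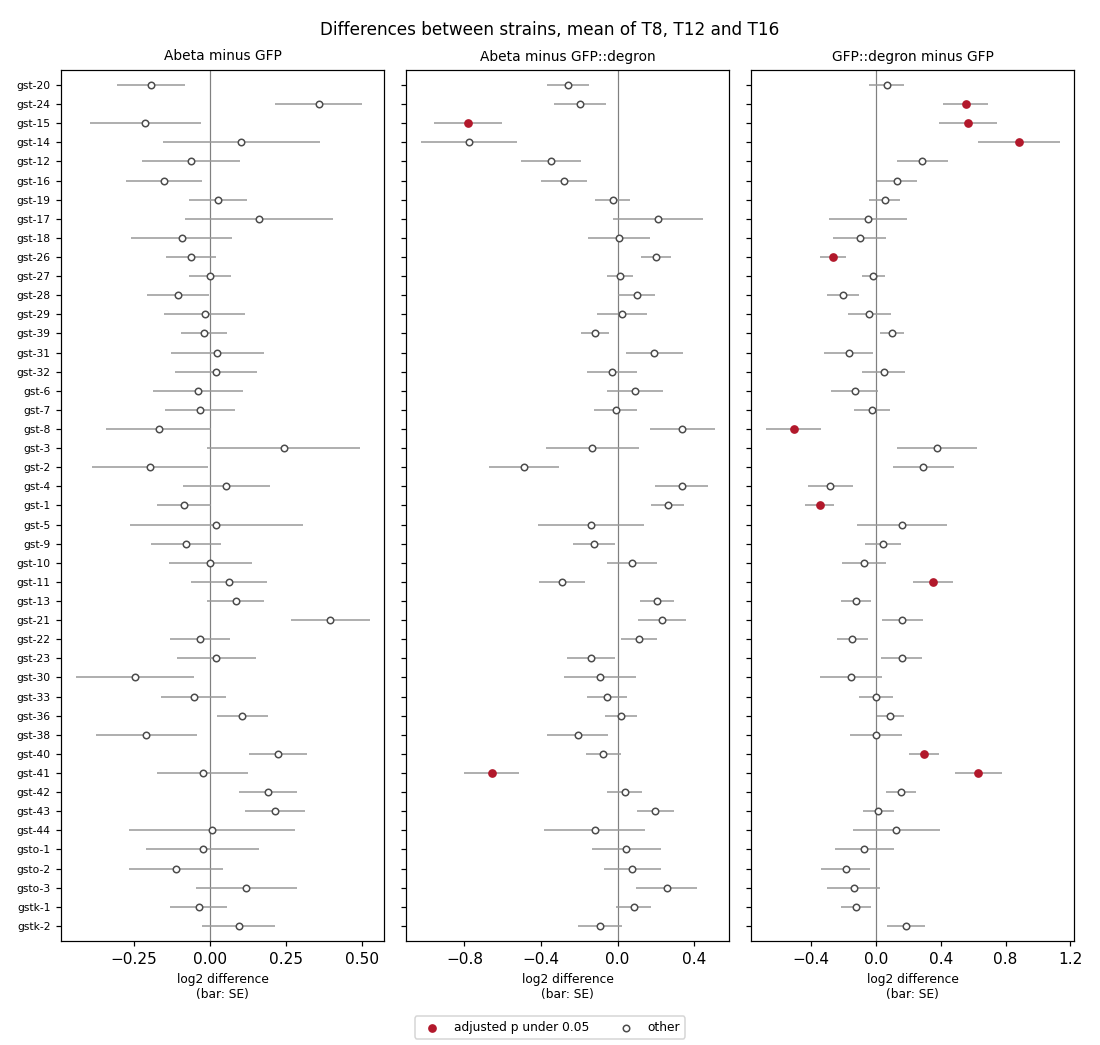
Differences between genotypes in log2 level (horizontal axis, each panel on its own scale) for the 45 genes, averaged over T8, T12 and T16, with bars for the SE and filled points for adjusted p under 0.05. The panel for Abeta minus GFP has no filled point, that for Abeta minus GFP::degron has 2 and that for GFP::degron minus GFP has 9.

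Abeta worms were next compared with GFP::degron worms over T8, T12 and T16. Of the 45 members, 2 were lower in Abeta worms and 0 were higher, which is 4.44% against 2.32% of all genes, or 1.62% for genes that were lower. They were gst-15 and gst-41. With array weights 11 members passed, these 2 among them, and no share of all genes is given for that setting.

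gst-15 had a lowest, median and highest log2 level of 4.54, 5.42 and 6.14 on 12 Abeta arrays, against 5.64, 6.29 and 6.63 on 13 GFP::degron arrays. All 12 Abeta arrays lay below the GFP::degron mean of their time, and at 2 of the 3 times the genotypes did not overlap. The difference was -0.78 ± 0.18 log2 (adjusted p = 0.0127, limma). By time it was -0.78 ± 0.31 at T8, -0.47 ± 0.29 at T12 and -1.10 ± 0.31 at T16. On the single T0 arrays, gst-15 was at 7.08 in Abeta, 7.77 in GFP::degron and 5.69 in GFP worms.

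gst-41 had a lowest, median and highest log2 level of 4.97, 6.17 and 6.77 on Abeta arrays, against 6.24, 6.72 and 7.19 on GFP::degron arrays. Again all 12 Abeta arrays lay below the GFP::degron mean of their time, and the genotypes were apart at 1 time, T12. There gst-41 was at 4.97, 5.60, 5.74 and 6.60 in Abeta, against 6.90, 7.16, 6.91, 6.69 and 7.17 in GFP::degron worms. The difference over the 3 times was -0.66 ± 0.14 log2 (adjusted p = 0.0103, limma). With T8 and T12 only, gst-41 still passed, at -0.72 (adjusted p = 0.0397), and gst-15 did not, at -0.63 (adjusted p = 0.218).

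gst-14 had an estimate as large as that of gst-15, -0.78 ± 0.25 log2, and did not pass (adjusted p = 0.0934, limma). gst-1 was above the GFP::degron mean of its time on all 12 Abeta arrays, with a difference of 0.26 and an adjusted p of 0.106. Without the number 1 arrays of T8 and T16 there were 5 calls instead of 2, and gst-1, gst-12 and gsto-3 joined gst-15 and gst-41, at 0.35, -0.52 and 0.52 log2 with adjusted p-values of 0.0379, 0.0232 and 0.0170. Without GFP::degron T8 repeat 1 alone, gst-1 passed at 0.31 (adjusted p = 0.0414).

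GFP::degron worms differed from GFP worms in 9 members, 6 higher and 3 lower, which is 20% against 24% of all genes. The comparison shares its GFP::degron arrays with the one before. The higher ones were gst-14, gst-41, gst-15, gst-24, gst-11 and gst-40, and the lower ones gst-8, gst-1 and gst-26. Of the 6 that were higher in GFP::degron worms, 5 were also lower at T16 than at T8, a comparison that uses the same arrays. The matching overlap over all genes is not given, so this count is not a trait of the family. Of the marker lists, 20 of 22 sperm genes and all 11 oocyte and eggshell genes were lower in GFP::degron worms, and 6 of 8 neuron genes were higher. Of 9 intestine genes 3 were lower, of 7 body-wall muscle genes 2 were lower, and of 10 molting genes 1 was higher and 1 lower. At T16 the mean log2 level of the sperm genes ran from 6.50 to 11.98 on GFP::degron arrays, against 12.58 to 12.94 on GFP arrays. The part of these lists in the result was not tested.

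gst-14 had a lowest, median and highest log2 level of 3.05, 4.97 and 5.93 on 13 GFP::degron arrays, against 2.14, 3.87 and 5.57 on 12 GFP arrays. All 13 GFP::degron arrays were above the GFP mean of their time, and the genotypes were apart at 1 of 3 times. The difference was 0.88 ± 0.25 log2 (adjusted p = 0.0107, limma). The estimate was 0.66 ± 0.48 at T8, 0.76 ± 0.39 at T12 and 1.23 ± 0.44 at T16.

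gst-41 was at 6.24, 6.72 and 7.19 (lowest, median and highest log2 level) in GFP::degron, against 5.16, 6.23 and 6.74 in GFP worms. All 13 GFP::degron arrays were above the GFP mean of their time, and the genotypes were apart at 2 of 3 times. The difference was 0.63 ± 0.15 log2 (adjusted p = 0.00205, limma), and the estimate was 0.36 ± 0.27 at T8, 0.56 ± 0.23 at T12 and 0.97 ± 0.25 at T16. gst-24 was at 7.48, 8.21 and 8.99 in GFP::degron, against 6.78, 7.83 and 8.85 in GFP worms. It differed by 0.55 ± 0.14 (adjusted p = 0.00419), with estimates of 0.24 ± 0.26 at T8, 0.58 ± 0.22 at T12 and 0.83 ± 0.24 at T16. Both genes had their widest estimate at T16, but neither passed the test of whether the T16 minus T8 change differed between these genotypes (limma). The mean stage scores of these genotypes also differed at T16, and their part in these estimates was not tested.

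gst-15 was at 5.64, 6.29 and 6.63 (lowest, median and highest log2 level) in GFP::degron, against 4.52, 5.72 and 6.25 in GFP worms. It lay above the GFP mean on 12 of 13 GFP::degron arrays and differed by 0.57 ± 0.18 log2 (adjusted p = 0.0186, limma). Its estimates were 0.81 ± 0.34 at T8, 0.56 ± 0.28 at T12 and 0.34 ± 0.31 at T16. gst-11 and gst-40 were higher in GFP::degron worms by 0.35 ± 0.12 and 0.30 ± 0.09 (adjusted p = 0.0343 and 0.0201). gst-40 was above the GFP mean on 13 of 13 GFP::degron arrays and gst-11 on 11.

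gst-1 was at 10.23, 10.79 and 11.05 (lowest, median and highest log2 level) in GFP::degron, against 10.91, 11.04 and 11.31 in GFP worms. It lay below the GFP mean on 12 of 13 GFP::degron arrays, and the difference was -0.35 ± 0.09 log2 (adjusted p = 0.00434, limma). gst-8 was at 3.44, 4.50 and 5.12 in GFP::degron, against 4.14, 5.02 and 5.56 in GFP worms. Its difference was -0.51 ± 0.17 (adjusted p = 0.0277), and the genotypes overlapped at all 3 times. gst-26 differed by -0.27 ± 0.08 (adjusted p = 0.0154). gst-4 was not among the calls, at -0.28 ± 0.14 (adjusted p = 0.153).

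With the stage score in the fit, 1 of the 9 calls was left, gst-26 at -0.40 (adjusted p = 0.0256). gst-24 then had an estimate of 0.13 and gst-11 of 0.19, while gst-41 and gst-15 had 0.56 and 0.67 with adjusted p-values of 0.108 and 0.124. With T8 and T12 only, 0 of the 45 members passed, with 0.46 for gst-41 (adjusted p = 0.135), 0.69 for gst-15 (adjusted p = 0.0696) and -0.33 for gst-1 (adjusted p = 0.0789).

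Some of the 9 calls lay close to the threshold and were lost with 1 array left out, while the estimates moved little. Without GFP T8 repeat 1, gst-8, gst-11, gst-15 and gst-40 were at -0.47, 0.34, 0.49 and 0.26 log2, with adjusted p-values of 0.0562, 0.0549, 0.0512 and 0.0517, and gst-12 passed at 0.43 (adjusted p = 0.0303). gst-11 was also lost without any 1 of 10 other arrays, at 0.31 to 0.35 with adjusted p-values between 0.0503 and 0.0680, and gst-8 without GFP T16 repeat 1, GFP::degron T8 repeat 2 or GFP::degron T16 repeat 3, at -0.45, -0.44 and -0.41 with adjusted p-values of 0.0534, 0.0608 and 0.0652. With GFP T8 repeat 3 kept in, gst-8 and gst-11 had adjusted p-values of 0.0572 and 0.0510. Without all number 1 arrays of T8 and T16, there were 4 higher and 4 lower members. Of the 9 calls 6 remained, and gst-12 and gsto-3 were added, at 0.58 and -0.35 log2 with adjusted p-values of 0.00216 and 0.0368. The 3 that were lost were gst-11 at 0.30, gst-15 at 0.46 and gst-40 at 0.23, with adjusted p-values of 0.150, 0.0970 and 0.0770.

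The comparison of T16 with T8 follows the family through late larval development, averaged over the 3 genotypes. At T16, 18 members had changed from T8, 40% against 40.9% of all genes. Of these, 17 were lower, which is 37.8% against 26.9% of all genes, and 1 was higher, against 14% of all genes. Without centring, 11 members were lower and 2 higher, 12 of them shared with the 18. The family's median difference was -0.25 log2, against -0.16 over all genes. Both kappa class genes and 2 of the 3 omega class genes were among the 17, with 13 of the 40 gst genes. Over the same interval all 22 sperm genes and all 11 oocyte and eggshell genes were higher, and all 7 body-wall muscle and all 8 neuron genes were lower. Of 9 intestine genes 2 were higher and 4 lower, and of 10 molting genes 1 was higher and 5 lower. With the stage score in the fit, which was built along this change, 0 of the 45 members passed. The unshifted estimates were then -1.16 for gst-14, -0.57 for gsto-1, -0.43 for gst-41, -0.40 for gst-11 and 0.49 for gst-10, while gst-24 was at 0.18 and gstk-1 at -0.03. Without the number 1 arrays 16 members passed, 15 of them shared with the 18.

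**Figure D3:**
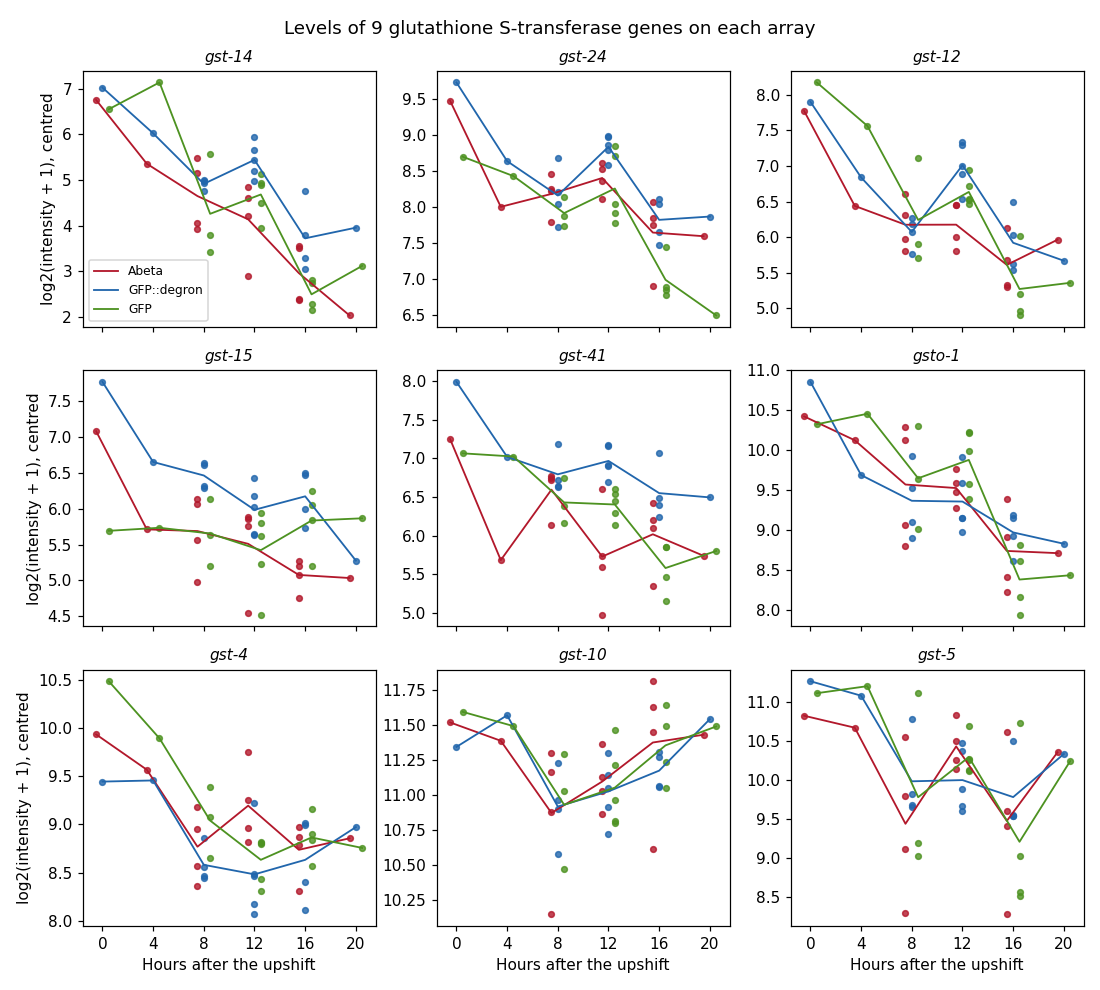
Log2 level of 9 genes (vertical axis) against hours after the upshift, with 1 point per array, lines through the group means, and Abeta, GFP::degron and GFP offset slightly to the sides. gst-14, gst-24, gst-12 and gsto-1 ended lower at T20 than at T0 in all 3 genotypes. The T8, T12 and T16 means of gst-15 lay above those of Abeta in GFP::degron worms. The highest gst-5 point of each T8 and T16 group was the array with repeat number 1.

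gst-14 had the widest T16 minus T8 difference of the family. It is a dim member, with a mean log2 level of 4.41 (rank 41 of 45) and an SD within groups of 0.64. The size of its difference is thus less certain than the call. With log2(intensity + 16) in place of log2(intensity + 1), all 18 calls of T16 minus T8 remained. Its log2 levels in Abeta worms were 2.40, 3.56, 2.37 and 3.50 at T16, against 5.14, 5.47, 4.05 and 3.92 at T8. In GFP::degron worms they were 3.79, 3.28, 4.75 and 3.05 at T16, against 4.93, 4.99, 4.98 and 4.76 at T8. In GFP worms they were 2.14, 2.27, 2.74 and 2.81 at T16, against 5.57, 3.42 and 3.78 at T8.

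In each genotype every T16 array of gst-14 was below every T8 array. The difference was -1.39 log2 relative to all genes and -1.55 unshifted, with an SE of 0.26 and an adjusted p of 1.91e-05 (limma). Without the number 1 arrays the unshifted difference of gst-14 was -1.18 (adjusted p = 0.00212), and within them alone it was -2.44 (adjusted p = 0.154).

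Among the other members that were lower at T16, gsto-1, an omega class gene made in the intestine and linked to protection from oxidative stress, had a lowest, median and highest log2 level of 7.94, 8.72 and 9.39 at T16, against 8.80, 9.53 and 10.30 at T8. All 12 T16 arrays of gsto-1 were below the T8 mean of their genotype, and T16 and T8 overlapped in 2 of the 3 genotypes. The relative difference of gsto-1 was -0.67 log2 (SE 0.19, adjusted p = 0.000651, limma), or -0.83 unshifted. Without the number 1 arrays the unshifted difference of gsto-1 was -0.73 (adjusted p = 0.00341), and within them alone it was -1.04 (adjusted p = 0.154).

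gst-11 was at 3.87, 4.46 and 5.06 (lowest, median and highest log2 level) at T16, against 4.68, 5.20 and 5.72 at T8, a relative difference of -0.55 log2 (SE 0.13, adjusted p = 4.4e-05, limma). The mitochondrial kappa class gene gstk-2 was at 5.77, 6.25 and 6.67 at T16, against 6.24, 6.90 and 7.47 at T8. Its relative difference was -0.47 (SE 0.12, adjusted p = 9.67e-05). All 12 T16 arrays of both genes were below the T8 mean of their genotype.

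gst-24 was at 6.78, 7.57 and 8.12 (lowest, median and highest log2 level) at T16, against 7.72, 8.14 and 8.68 at T8, with a relative difference of -0.44 log2 (SE 0.14, adjusted p = 0.0011, limma). The relative difference was -0.51 for gsto-3 (SE 0.17, adjusted p = 0.0018). It was -0.40 for gst-12 (SE 0.16, adjusted p = 0.00603) and -0.40 for gst-41 (SE 0.15, adjusted p = 0.00334). The peroxisomal kappa class gene gstk-1 had -0.13 (SE 0.09, adjusted p = 0.0145). The gstk-1 call was lost without centring and with quantile normalization (adjusted p = 0.0860 and 0.0511). In T20 minus T0 gstk-1 was not called, but passed as higher under these 2 scalings, at 0.46 and 0.43 with adjusted p-values of 0.0199 and 0.0218.

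gst-10 was the 1 member called higher at T16. It had a lowest, median and highest log2 level of 10.61, 11.29 and 11.81 at T16, against 10.15, 10.96 and 11.29 at T8. The ranges overlapped, and 1 of 12 T16 arrays lay below the T8 mean of its genotype. The relative difference was 0.55 log2 (SE 0.14, adjusted p = 0.022, limma), or 0.40 unshifted. The call was lost without GFP T8 repeat 2 and without Abeta T8 repeat 4, with adjusted p-values of 0.0722 and 0.0517, and the estimates then were 0.32 and 0.31 unshifted. gst-4 and gst-1 had relative differences of 0.11 and 0.30 and did not pass (adjusted p = 0.809 and 0.22). gst-1 passed as higher without centring and with quantile normalization, at 0.25 and 0.20 with adjusted p-values of 0.0100 and 0.0150.

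**Figure D4:**
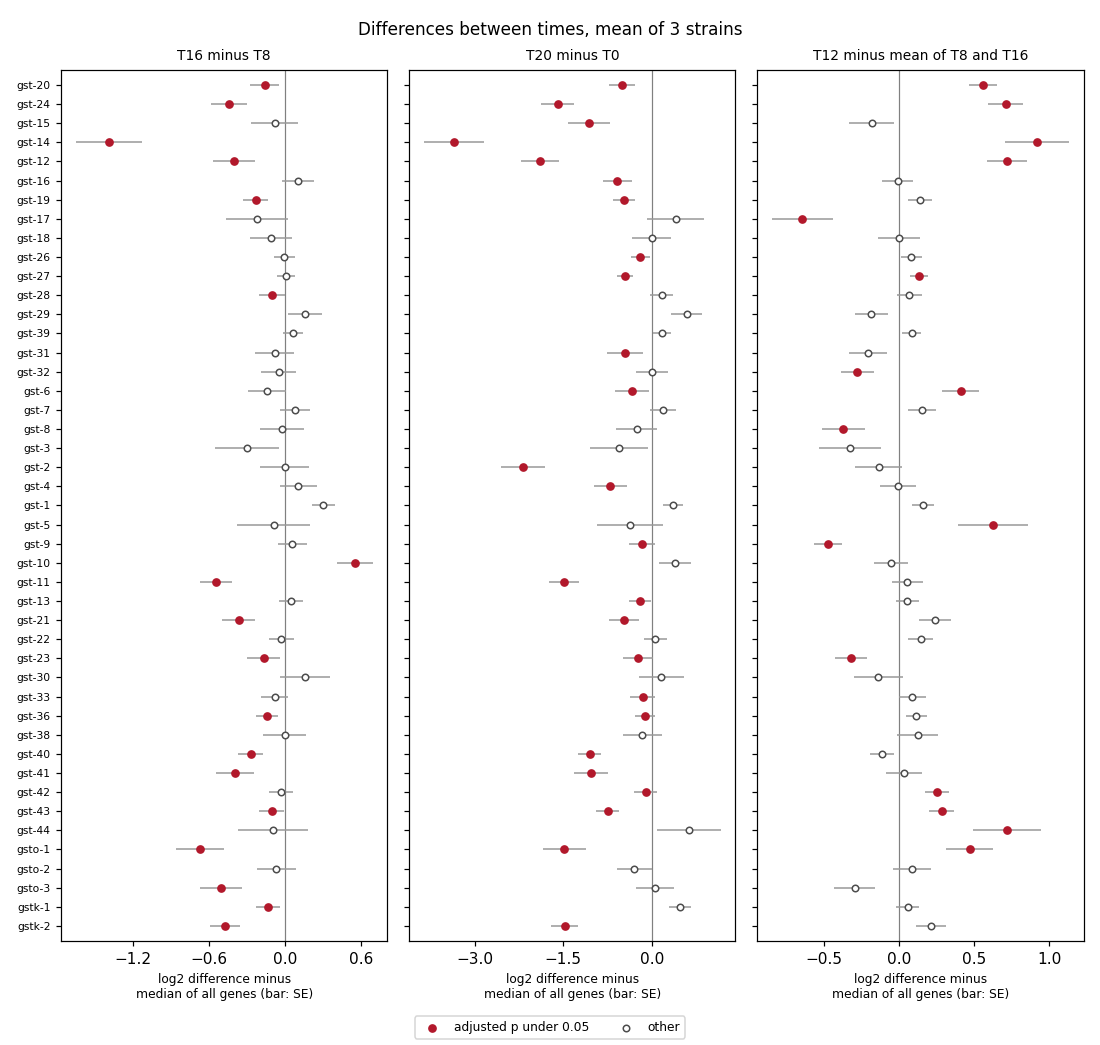
Differences between times in log2 level relative to the median of all genes (horizontal axis, each panel on its own scale) for the 45 genes, averaged over the 3 genotypes, with bars for the SE and filled points for adjusted p under 0.05. Filled points are mostly left of 0 for T16 minus T8 (17 of 18) and T20 minus T0 (26 of 26), and lie on both sides for T12.

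Over the whole 20 hours, T20 was compared with T0 on 3 arrays each, 1 per genotype, with the spread taken from T8, T12 and T16. At T20, 26 members were lower, which is 57.8% against 33.2% of all genes, and 0 were higher, against 14% of all genes. At an unadjusted p under 0.05 there were 27 members in either direction. The family's median was -0.65 log2, against -0.39 over all genes. All 22 sperm and 11 oocyte and eggshell genes were higher at T20, and all 7 muscle and 8 neuron genes were lower. Of 9 intestine genes 2 were higher and 4 lower, and of 10 molting genes 1 was higher and 1 lower. Without centring 15 members passed, 14 lower and 1 higher. Of the 17 members lower at T16 than at T8, 14 were among the 26, and the matching overlap over all genes is not given. With the 6 arrays alone and genotype as a block, 14 members passed, and with the stage score 6 passed, gst-14, gst-12, gst-2, gst-11, gst-40 and gstk-2.

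gst-14 was at 2.03 in Abeta, 3.95 in GFP::degron and 3.12 in GFP worms at T20, against 6.75, 7.02 and 6.55 at T0. Its relative difference was -3.35 log2 (SE 0.51, adjusted p = 7.99e-07, limma), a size that rests on dim levels at T20. gst-12 was at 5.96, 5.67 and 5.36 at T20 in Abeta, GFP::degron and GFP worms, against 7.77, 7.90 and 8.17 at T0, with a relative difference of -1.90 (SE 0.32, adjusted p = 1.17e-06). Both genes were lower at T20 in all 3 genotypes.

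gst-24 was at 7.60 in Abeta, 7.87 in GFP::degron and 6.49 in GFP worms at T20, against 9.48, 9.73 and 8.70 at T0, with a relative difference of -1.59 log2 (SE 0.28, adjusted p = 1.45e-06, limma). gst-11, gsto-1 and gstk-2 had relative differences of -1.49, -1.48 and -1.48 (adjusted p = 5e-07, 0.000114 and 2.55e-07). gst-40 had -1.05 (SE 0.19, adjusted p = 4.72e-07). These members too were lower at T20 in each genotype.

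gst-15 and gst-4 lost their calls without 1 genotype. gst-15 was at 5.03 in Abeta, 5.28 in GFP::degron and 5.87 in GFP worms at T20, against 7.08, 7.77 and 5.69 at T0, so it was lower at T20 in 2 of 3 genotypes. The relative difference was -1.06 log2 (SE 0.36, adjusted p = 0.00129, limma), or -1.46 unshifted. Without GFP::degron at T0 or T20 gst-15 was at -0.94 unshifted (adjusted p = 0.0935). gst-4 was at 8.86, 8.97 and 8.76 at T20, against 9.94, 9.45 and 10.49 at T0, a relative difference of -0.70 (SE 0.28, adjusted p = 0.0019). gst-4 was lower at T20 in all 3 genotypes. Its unshifted difference was -1.10, and without GFP at T0 or T20 it was -0.78 (adjusted p = 0.0742).

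The size of the gst-2 difference rested on 1 value near 0. gst-2 was at 4.04 in Abeta, 3.66 in GFP::degron and -0.08 in GFP worms at T20, against 5.36, 4.73 and 5.25 at T0. The deposited intensity on the GFP T20 array was 0.00379, so the fitted relative difference of -2.18 log2, or -2.57 unshifted, is not used as a size here. Without the GFP arrays of T0 or T20 the unshifted difference of gst-2 was -1.20 and it still passed (adjusted p = 0.0387). gst-10 and gst-1 did not pass, with relative differences of 0.39 and 0.36. Without GFP::degron at T0 or T20, 17 of the 45 members passed instead of 26.

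At T4 minus T0, 0 of the 45 members passed (limma), against 0.666% of all genes, and 10 had an unadjusted p under 0.05. The nearest to a call were gst-24, at -0.88 log2 relative to all genes (SE 0.28, adjusted p = 0.131), and gst-12, at -0.94 (SE 0.32, adjusted p = 0.171). gst-4 had -0.25 (SE 0.28, adjusted p = 0.841). With array weights 5 members passed, and no share of all genes is given for that setting.

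T12 lay off the mean of T8 and T16 for part of the family. This comparison was added after the values were seen. A call in it does not show that T12 lay outside the range from T8 to T16. T12 minus the mean of T8 and T16 called 11 members higher and 5 lower, 35.6% against 49.5% of all genes, so the share of calls was below that of all genes. The higher members were 24.4%, against 25.9% of all genes, and the lower ones 11.1%, against 23.6%. The molting list, genes of cuticle replacement, had 8 of 10 members higher at T12 and 1 lower. Of the other lists, 6 of 8 neuron genes were higher, and 21 of 22 sperm and 11 of 11 oocyte and eggshell genes were lower. Of 9 intestine genes 4 were higher and 2 lower, and 3 of 7 body-wall muscle genes were higher. Their part in the result was not tested.

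At T12 gst-14 was above the mean of T8 and T16 by 0.92 ± 0.21 log2 (adjusted p = 0.001, limma). gst-12, gst-44, gst-24, gst-20 and gsto-1 were above it by 0.73 ± 0.13, 0.73 ± 0.22, 0.71 ± 0.12, 0.57 ± 0.09 and 0.47 ± 0.15. gst-17 and gst-9 were below it, by -0.64 ± 0.20 and -0.47 ± 0.09. Over all arrays of a time, gst-14 averaged 4.64 at T8, 4.80 at T12 and 3.06 at T16, and gsto-1 averaged 9.52, 9.59 and 8.70. For both genes T12 was thus near T8, and T16 was lower. gst-12, gst-44, gst-24 and gst-20 averaged higher at T12 than at T8 and T16, and gst-17 and gst-9 lower. With quantile normalization gsto-1 was at 0.33 and gst-17 at -0.15 and neither passed (adjusted p = 0.0929 and 0.419). The sign of this contrast thus differed between genes of 1 run of neighbours, such as gst-12 and gst-17.

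gst-5, which was also called higher in this comparison, had its highest level in each T8 and T16 group on the number 1 array. The log2 level of gst-5 in Abeta worms was 10.56, 9.80, 9.11 and 8.30 at T8, 10.50, 10.26, 10.15 and 10.83 at T12, and 10.62, 9.61, 9.41 and 8.28 at T16, with number 1 given first. In GFP worms it was 11.11, 9.20 and 9.03 at T8, and 10.74, 9.02, 8.57 and 8.52 at T16. The number 1 arrays alone ran in Abeta worms at 10.83 at T0, 10.67 at T4, 10.56 at T8, 10.50 at T12, 10.62 at T16 and 10.36 at T20.

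In Abeta worms the low gst-5 values at T8 and T16 were thus on arrays with other numbers. In GFP::degron worms the number 1 array at T12, at 9.61, was the lowest of its group. The T12 difference of gst-5 was 0.63 ± 0.23 log2 (adjusted p = 0.0274, limma), and with quantile normalization it was 0.48 and did not pass (adjusted p = 0.0929). For the whole family, leaving out number 1 of T8 and T16 gave 20 calls at T12, 15 of them shared with the 16.

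Whether the T16 minus T8 change differed between genotypes was tested as an interaction. In each of Abeta against GFP, Abeta against GFP::degron and GFP::degron against GFP, 0 of 45 members passed (limma). Over all genes 0.0175%, 0.00584% and 0.158% passed, and for GFP::degron against GFP the median of all genes was 0.12 log2, which the values here still contain. At an unadjusted p under 0.05 there were 2, 0 and 4 members. For gst-24 the interaction of GFP::degron against GFP was 0.59 ± 0.36 log2 (adjusted p = 0.631) and for gst-41 0.61 ± 0.37 (adjusted p = 0.637), with 95% intervals from -0.14 to 1.32 and from -0.16 to 1.37. For gst-15, Abeta against GFP gave -0.79 ± 0.46, with an interval from -1.73 to 0.14. With array weights, 11 members passed for GFP::degron against GFP. No share of all genes under array weights is given here, so this count cannot be set against the 0.158%.

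The family lies partly in runs of adjacent genes. In the RefSeq gene order of WBcel235, 22 members fell into 4 runs with at most 1 other protein-coding gene between members. The longest run holds 9 genes in the order gst-20, gst-24, gst-15, gst-14, gst-12, gst-16, gst-19, gst-17 and gst-18. Of these 9, 5 were lower at T16 than at T8, 7 lower at T20 than at T0 and 3 higher in GFP::degron minus GFP, with 1 lower in Abeta minus GFP::degron. Over all genes 26.9% were lower at T16, 33.2% lower at T20, 12.3% higher in GFP::degron minus GFP and 1.62% lower in Abeta minus GFP::degron, and the same shares of T16 and T20 stand beside the counts of the other runs. The relative T20 minus T0 differences within the run went from -3.35 for gst-14 to 0.41 for gst-17, with -1.59 for gst-24, -1.06 for gst-15 and -1.90 for gst-12.

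The run of 7 genes from gst-26 to gst-32 had 1 member lower at T16 and 3 lower at T20. The 3 genes gst-3, gst-2 and gst-4 had 0 calls at T16 minus T8 and 2 lower at T20. The 3 genes gst-6, gst-7 and gst-8 had 1 lower at T20. Among the 23 members in no run, 11 were lower and 1 higher at T16, and 13 were lower at T20. Probe sets of 8 members carry a suffix that marks possible cross-hybridization, gst-41 among them, so signal from similar transcripts cannot be told apart there.

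All 8 genes of glutathione synthesis, recycling and cysteine supply were measured. Of these, 7 were lower and 1 higher at T16, and 7 were lower and 1 higher at T20, where 26.9% and 33.2% of all genes were lower. gcs-1, the rate-limiting enzyme of glutathione synthesis, gss-1, glutathione synthetase, and gsr-1, glutathione reductase, had relative differences at T16 minus T8 of -0.16, -0.17 and -0.13 log2 (adjusted p = 0.0018, 2.39e-05 and 0.00361, limma). cth-1, which makes cysteine, had -1.85 at T20 minus T0 (SE 0.26, adjusted p = 4.66e-08). cbs-2 was the 1 gene of the list that was higher, by 3.16 at T16 minus T8 (SE 0.45, adjusted p = 4.43e-06) and by 5.14 at T20 minus T0 (SE 0.88, adjusted p = 5.89e-05), and its GFP::degron minus GFP difference was -1.97 ± 0.44 (adjusted p = 0.00161). gss-1 was higher in Abeta worms, with an Abeta minus GFP::degron difference of 0.20 ± 0.05 (adjusted p = 0.0455).

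Of 9 listed glutaredoxin, thioredoxin and glyoxalase genes, 8 were measured, with 0 calls at T16 minus T8. At T20, 4 were lower and 1 higher, where 33.2% of all genes were lower and 14% higher. The higher one was glod-4, glyoxalase I, which uses glutathione to remove methylglyoxal. It was higher at T4 than at T0 by 0.81 log2 relative to all genes (SE 0.13, adjusted p = 0.00153, limma) and at T20 by 0.99 (adjusted p = 0.00024).

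Of 8 ATP-driven mrp pumps, which export glutathione conjugates, 5 were lower at T16 and 5 at T20. Over all genes 26.9% and 33.2% were lower in these comparisons. In GFP::degron minus GFP, mrp-2 was higher by 0.79 ± 0.17 log2, mrp-1 by 0.46 ± 0.13 and mrp-8 by 0.23 ± 0.08 (adjusted p = 0.000938, 0.009 and 0.0326, limma). These were 3 of the 8 pumps, where 12.3% of all genes were higher. Of the 8 regulators taken up next, 0 were higher and 1 was lower in that comparison, where 11.7% of all genes were lower. Of 8 regulators, 5 were lower at T16 and at T20, namely wdr-23, the adaptor that marks SKN-1 for degradation, the p38 pathway kinases pmk-1 and sek-1, the Mediator subunit gene mdt-15 and the GATA factor gene elt-3. pmk-1 had a relative T16 minus T8 difference of -0.88 (SE 0.31, adjusted p = 0.00741). skn-1 itself was called in none of the genotype comparisons, T16 minus T8, T4 minus T0 or T20 minus T0. At T12 skn-1 was above the mean of T8 and T16 by 0.34 ± 0.14 (adjusted p = 0.0435, limma). In Abeta minus GFP, 0 genes of these 4 lists passed, as with the family.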

How the data were processed

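The authors deposited 1 linear intensity per probe set and array. The submitters' processing notes name Affymetrix Expression Console 1.1. How probes were summarised and arrays scaled is not given in the sources used here. RNeasy kits were used for RNA, per the labels' protocols.

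Intensities were turned into log2(intensity + 1), which compresses changes where intensities are close to 1. Each array was centred on its median over 17118 genes. Each gene had 1 probe set, the one with the highest mean among those naming 1 gene. The 1 probe set that names gst-10 with another gene was not used. All 45 members matched RefSeq (WBcel235) by Entrez ID and symbol. GFP T8 repeat 3 was left out as far dimmer, which left 46 arrays. limma 3.58.1 in R 4.3.3 (lmFit and eBayes; statmod 1.5.0) fitted a mean to each of 18 groups with 28 residual degrees of freedom, and p-values were adjusted by Benjamini-Hochberg over all genes at a threshold of 0.05. The groups of T0, T4 and T20 have 1 array each, so their tests assume the spread of the other times. Precision is limited by the number of arrays. The labels do not say that repeats were separate cultures, so p-values measure the spread between these samples. Python 3.11.15 with pandas 2.3.3, numpy 2.4.6 and matplotlib 3.10.9 made tables and plots. The fit was tested on simulated data.

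Members and gene lists were chosen with earlier results of these data known. Values are given in full for up to 8 called members per genotype comparison, up to 8 in each direction per time comparison, and gst-1, gst-4, gst-5, gst-7, gst-10, gst-24, gst-30, gst-38, gsto-1 and gstk-1. Others are named where they are part of a count. No probe set's level was set against another's. Alternatives were other scaling, pseudocount, filters, probe set means, blocks, stage score, array weights and leaving out arrays. Those added after the values were seen were the T12 comparison, T8 and T12 only, and the sets with and without the number 1 arrays.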

Additional observations from a re-analysis of the deposited data

Results flagged for a closer look

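In 160 groups of 4 or 5 arrays, formed by 20 members, 11 values lay far from the others of their group, where chance gives about 1 in 20 groups. The number of flags is thus close to what chance gives, and some arrays were flagged for more than 1 gene. Of these, 3 concern gst-5, which was high at 10.79 on GFP::degron T8 repeat 1 (others at most 9.82), at 10.50 on GFP::degron T16 repeat 1 (others at most 9.55) and at 10.69 on GFP T12 repeat 5 (others at most 10.28). On the same GFP T12 repeat 5, gst-7 was high at 10.56.

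gst-41 was high at 7.19 on GFP::degron T8 repeat 4 and low at 6.14 on Abeta T8 repeat 3. gst-15 was low at 4.54 on Abeta T12 repeat 1, where the other 3 arrays were at 5.76 to 5.88. gst-40 was low at 6.07 and gsto-3 high at 8.29 on Abeta T12 repeat 2. gst-24 was high at 7.45 on GFP T16 repeat 4, and gst-38 was low at 8.27 on GFP::degron T12 repeat 4. What made these arrays differ was not tested.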

How the results depend on the processing

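Members called under other settings are given against the reported counts. The shares of all genes under these settings are not given, so a changed count may hold for all genes alike. Abeta minus GFP (reported 0) had 1 with all 47 arrays and 7 with array weights. Abeta minus GFP::degron (reported 2) had 5 with quantile normalization, 11 with array weights, 1 with T8 and T12 only and 5 without number 1 of T8 and T16. GFP::degron minus GFP (reported 9) had 1 with the stage score, 16 with array weights and 0 with T8 and T12 only. T16 minus T8 (reported 18) had 0 with the stage score and 0 with only the 6 number 1 arrays. These 6 arrays are too few for that 0 to speak against the reported calls. The T16 minus T8 interaction of GFP::degron against GFP (reported 0) had 11 with array weights. T4 minus T0 (reported 0) had 1 without centring, 1 with quantile normalization, 1 with the stage score and 5 with array weights. T20 minus T0 (reported 26) had 15 without centring, 6 with the stage score and 14 with the 6 arrays alone. The T12 comparison (reported 16) had 9 with quantile normalization and 2 with the stage score.

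Leaving out 1 array at a time gave 0 to 1 for Abeta minus GFP, 2 to 3 for Abeta minus GFP::degron, 6 to 10 for GFP::degron minus GFP, 14 to 19 for T16 minus T8, 0 to 0 for the 3 interactions and for T4 minus T0, 17 to 27 for T20 minus T0 and 13 to 19 at T12. In T16 minus T8 with the stage score, gst-24 turned to 0.18 and gsto-3 to 0.11, neither of them called. In T20 minus T0 with quantile normalization, gst-1 turned to 0.32 (adjusted p = 0.0475). The cause was not tested. A replicate block by repeat number gave 0 for Abeta minus GFP, 2 for Abeta minus GFP::degron, 9 for GFP::degron minus GFP, 18 for T16 minus T8, 27 for T20 minus T0, 16 at T12, and 0 for the interactions and T4 minus T0. The numbers were not taken as a pairing, since not every same-number pair was over 0.1: 137 same-number pairs had a median r of 0.0179 with 51 over 0.1, against a median of -0.00573 with 106 over 0.1 in 470 other pairs, and 16 of 37 arrays correlated best with their own number. The number 1 arrays of T8 and T16 did deviate together, as described above.

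Limits are the unknown scaling of the deposited intensities and single arrays at T0, T4 and T20. For 15 members the mean log2 level was under 6, where the size of a difference is less certain.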
